A study of Mus musculus with 10 samples.

Results

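The distal flank of the Skint gene cluster on mouse chromosome 4 was represented by 790 of 161460 autosomal probes, those on chromosome 4 that start between 114050001 and 124000000 (mm9). The stretch was chosen by its measured values, because a core at 121.4 to 122.2 Mb varied strongly between the animals in the same log2 ratios that are given below, so the variation of the core is a description and carries no test. The core held 5 probes, the proximal stretch between the window start and the core 646, and the distal stretch beyond it 139. Genomic DNA from the liver of 10 mice of the ZFLacZ transgenic line was hybridised in Cy5, 1 animal per array, and the Cy3 channel held a reference mixed in equal parts from the strains C57BL/6, SJL and DBA. The 5 ICSI-derived animals were obtained by injecting ZFLacZ sperm from testis cells frozen for 14 years into oocytes of DBA x C57BL/6 females, and the 5 naturally born animals were adult ZFLacZ progeny that the protocol calls wild-type. The line was first made on an SJL x C57BL/6 background. By their labels 3 animals of each group were male and 2 female. No age was given for the ICSI-derived animals in the sources used here. The freezing of the germ cells and the dam strain differed along with the mode of conception, so these cannot be told apart between the groups. The array labelled naturally born replicate 3 did not match its label, a male, on the sex chromosomes, at a mean log2 ratio of -0.033 on chromosome X and -0.0072 on chromosome Y, against -0.61 to -0.55 and 0.75 to 0.82 in the other labelled males. Between 173864 and 174090 of 174305 spots per array were well above background in both dyes, and precision is limited by how many arrays were run.

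Skint genes encode membrane proteins of the immunoglobulin superfamily, and Skint1 is known for its part in the selection of a class of gamma delta T cells that settle in mouse skin. Inbred mouse strains carry long blocks of chromosome as haplotypes, sets of neighbouring variants passed on together, and gene clusters made of repeated copies often differ in copy number between strains. An array probe gives less signal where the animal has less matching DNA, so a missing stretch and a changed sequence under a single probe cannot be told apart. A stretch that only some of the pooled strains carry is also diluted in the reference. In RefSeq's order for GRCm38, a later build, the protein-coding genes after the last Skint gene begin with Trabd2b, Foxd2, Foxe3, Cmpk1, Stil, which acts in centriole duplication, and Tal1, a transcription factor of blood formation. They go on with 8 Cyp4a genes, which encode fatty acid hydroxylases, 13 Olfr genes, which encode olfactory receptors, the glucose transporter gene Slc2a1, and Rlf, after which Gm12888, Gm12886, Gm12880, Gm12887, Gm10573 and 9530002B09Rik stand before Ppt1 and, farther on, Mycl and Macf1. The probes carry mm9 positions and no gene names in the files, so none of them was placed on a gene.

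The 5 core probes lay at 3 separate levels in the 10 animals. The mean log2 ratio over the core was 1.45 in ICSI-derived replicate 1. It was 0.49 in ICSI-derived replicate 4, 0.56 in naturally born replicate 1 and 0.51 in naturally born replicate 2. In the remaining ICSI-derived animals, replicates 2, 3 and 5, it was -3.18, -2.96 and -3.05. It was -3.37 on the array labelled naturally born replicate 3, and -3.26 and -3.19 in naturally born replicates 4 and 5. Each group therefore held animals at an intermediate and at a low level, and the highest level was seen in a single animal.

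**Figure D1:**
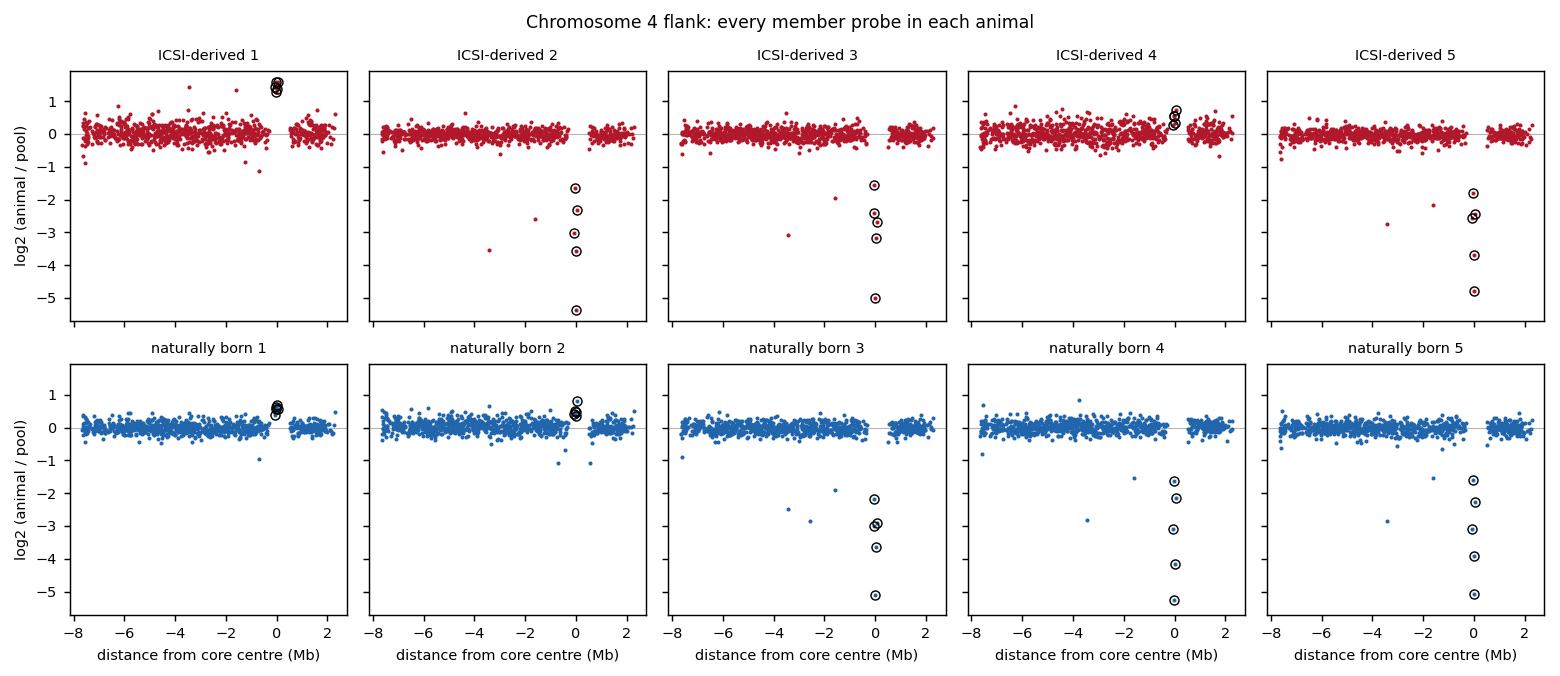
Log2 ratio of animal over pool (vertical axis) for each of the 790 member probes against distance from the core centre in Mb (horizontal axis), 1 panel per animal, ICSI-derived in red and naturally born in blue. Circled points are the 5 core probes, with a mean of 1.45 in ICSI-derived 1, between 0.49 and 0.56 in 3 animals and between -3.37 and -2.96 in the other 6, while nearly all other probes scatter around 0.

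On the linear scale the core signal was 2.73 times that of the pool in ICSI-derived replicate 1. It was between 1.40 and 1.47 times the pool's in the 3 intermediate animals, and between 0.0967 and 0.129 times in the 6 low animals. The ratio of the highest animal to an intermediate one was 1.95 for ICSI-derived replicate 4, 1.85 for naturally born replicate 1 and 1.91 for naturally born replicate 2. The low level was set partly by the background. In the 6 low animals only 2 or 3 of the 5 core probes were well above background in Cy5, against 5 of 5 in the other 4. The processing moved that level most. With normexp background correction the low animals lay between -0.91 and -0.60, the intermediate ones between 0.53 and 0.68, and ICSI-derived replicate 1 at 1.82. The normexp setting added an offset of 50 to both dyes, which by itself draws ratios of weak signals toward 0. How much of the move came from the offset was not tested. Over the core probes that were well above background on all arrays, those at 121649423 and 121667948, the low animals lay between -2.59 and -1.98. That filter drops probes for weak Cy5 signal in the low animals, so it favours a less negative level. The order of the 3 levels was the same in each case.

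The core probes gave the same 3 levels one by one. The first, at chr4:121649423-121649482, was at 1.43 in ICSI-derived replicate 1, from 0.28 to 0.41 in the intermediate animals, and from -3.10 to -2.40 in the others. The next, at chr4:121667948-121668007, spanned the least, at 1.28, from 0.52 to 0.57 and from -2.17 to -1.56. The probe at chr4:121694712-121694771 spanned the most, at 1.58, from 0.47 to 0.62 and from -5.36 to -4.79. At chr4:121724619-121724678 the values were 1.38, from 0.34 to 0.67 and from -4.17 to -3.16. At chr4:121767327-121767386 they were 1.57, from 0.55 to 0.82 and from -2.93 to -2.15. Differences between core probes were wide only at the low level, where the SD over the 5 probes was between 1.10 and 1.48 within an animal, against 0.11 to 0.19 in the other 4 animals.

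The order of the animals came from the dye that carried the animal's DNA. Relative to each array's autosomal median, the Cy5 signal of the core was 0.78 on the log2 scale in ICSI-derived replicate 1. It was from -0.17 to -0.08 in the intermediate animals and from -4.08 to -3.60 in the low ones. The Cy3 signal of the pool stayed between -0.71 and -0.58 on all 10 arrays. At the core probe with the widest span the Cy5 signal varied by 6.58 over the animals and the Cy3 signal by 0.39.

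**Figure D2:**
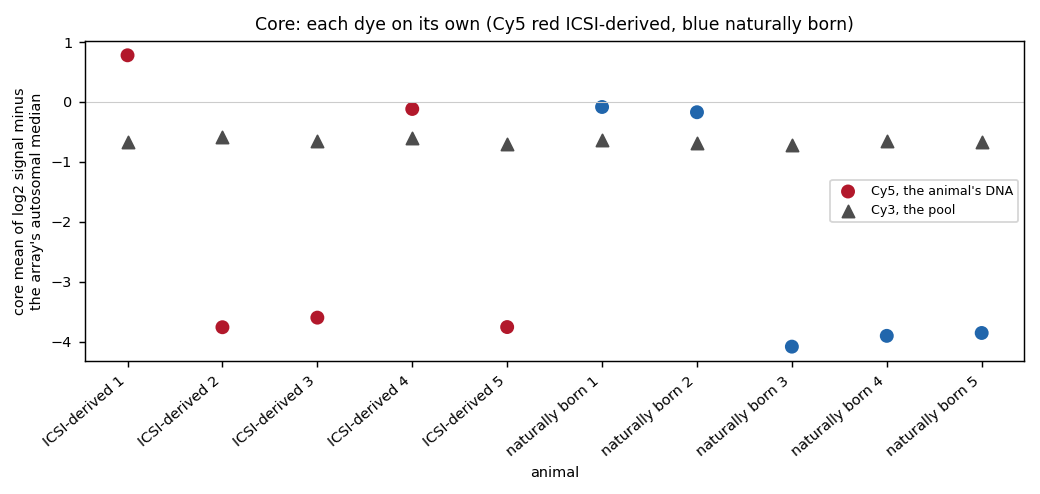
Mean over the core of the log2 processed signal minus the array's autosomal median (vertical axis) in each animal (horizontal axis), with Cy5 as circles, red for ICSI-derived and blue for naturally born, and Cy3 as grey triangles. Cy5 lies at 0.78 in ICSI-derived 1, between -0.17 and -0.08 in 3 animals and between -4.08 and -3.60 in the other 6, and Cy3 lies between -0.71 and -0.58 throughout.

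The borders of the core are known only as closely as the probes allow. The 5 probes spanned 118 kb, and all of them fell in 2 of the 8 bins of 100 kb between 121.4 and 122.2 Mb. No probe lay in the 254 kb before the first core probe or in the 451 kb after the last, while the longest gap elsewhere in the window was 98.0 kb. The last probe before the core, at 121394965, differed by 0.15 over the animals and lay between 0.00 and 0.15. The first after it, at chr4:122218594-122218644, had a smaller version of the core pattern, at 0.17 in ICSI-derived replicate 1, from -0.21 to -0.01 in the intermediate animals and from -0.54 to -0.37 in the low ones. Segmentation, which splits a profile into stretches of constant mean and called those at least 0.25 from 0, found a segment with exactly the 5 core probes in 8 animals. None was called over the core in ICSI-derived replicate 4 and naturally born replicate 2, which lay at the intermediate level on arrays with a neighbour-to-neighbour spread of 0.21 and 0.17. It found no other segment in the window.

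Noise between neighbouring probes went partly with the core level. The neighbour-to-neighbour spread was widest at 0.20 and 0.21 for ICSI-derived replicates 1 and 4 and at 0.17 for naturally born replicate 2, against 0.14 to 0.15 on the other 7 arrays. Naturally born replicate 1, on an array with a spread of 0.14, had a core mean of 0.56 beside 0.49 and 0.51 on the 2 noisier arrays at that level. The slides held the levels unevenly, and their part in the result was not tested. Slide 1 held the highest animal, 2 intermediate ones and the low ICSI-derived replicate 2, slide 2 held an intermediate and 3 low animals, and slide 3 held 2 low animals.

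Outside the core the window was close to 0 in every animal. The proximal stretch had means between -0.039 and 0.038 and the distal stretch between -0.029 and 0.037. In 19 bins of up to 500 kb, of 8 to 52 probes each, the lowest mean of any animal was -0.094 and the highest 0.096. At the borders of the window, the last before it ranged from -0.004 to 0.27 over the animals and the first inside from -0.40 to -0.01, while the last inside, at 123989186, ranged from 0.19 to 0.61 and the first beyond from -0.27 to 0.18.

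A range over the 10 animals of 1 or more was used to call a probe variable, and 1.13% of all autosomal probes reached it. Of the members, 17 did: all 5 in the core, 11 of 646 in the proximal stretch (1.70%) and 1 of 139 in the distal stretch (0.719%). The core probes were among the values that chose the window, so their share tells nothing new. The 11 proximal ones were single probes at this cutoff, and the mean of the 10 nearest probes lay between -0.165 and 0.151 in every animal around each of them. Such a mean can hide neighbours of smaller range that follow the core, as around 114106021 below. Without the array labelled naturally born replicate 3, 16 members were variable. The median range over the animals was 0.33 in the proximal and 0.31 in the distal stretch.

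Whether these probes sorted the animals as the core did was described by Pearson's r between a probe and the core mean over the 10 animals. The animals share arrays, dyes and the pool with the core, so r carries no test. An r of 0.9 or more was found at 3 of the 12 variable probes outside the core (25.0%), all in the proximal stretch. None of the 1608 variable probes on the other autosomes reached it (0%). On chromosome 4 it was reached by 89 of 147 variable probes before the window (60.5%) and 6 of 55 after it (10.9%). A looser reading asks only whether the 4 animals highest on the core, ICSI-derived replicates 1 and 4 and naturally born replicates 1 and 2, all lie above or all below the other 6. This held at 5 of the 12 (41.7%), against 2.43% of the variable probes on the other autosomes. On chromosome 4 the share was 66.0% before the window and 34.6% after it, so it was not particular to the window. The remaining 7 sorted the animals in other ways. Without the array labelled naturally born replicate 3, 4 probes outside the core reached an r of 0.9.

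The strongest match lay in the proximal stretch, at chr4:118276369-118276427, with an r of 0.99. Its log2 ratio was 1.43 in ICSI-derived replicate 1, 0.67 in ICSI-derived replicate 4, 0.43 in naturally born replicate 1 and 0.66 in naturally born replicate 2. The other ICSI-derived animals, replicates 2, 3 and 5, were at -3.54, -3.08 and -2.75. The array labelled naturally born replicate 3 was at -2.49, and naturally born replicates 4 and 5 at -2.83 and -2.85. The gap between the intermediate and low animals was 2.92, and Cy5 was well above background on the 4 higher arrays only. Its 10 nearest probes had means between -0.08 and 0.05 in all animals.

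A second single probe repeated the 3 levels closer to the core, at chr4:120114279-120114338, with an r of 0.97. It read 1.35 in ICSI-derived replicate 1, 0.32 in ICSI-derived replicate 4, and 0.34 and 0.22 in naturally born replicates 1 and 2. ICSI-derived replicates 2, 3 and 5 were at -2.60, -1.94 and -2.16, and the array labelled naturally born replicate 3 and naturally born replicates 4 and 5 at -1.91, -1.54 and -1.54. The groups of animals did not overlap, with 1.76 between the lowest intermediate and the highest low animal. Again Cy5 was well above background on 4 arrays, and the neighbours averaged between -0.02 and 0.06.

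The third match stood next to the Skint side of the window, at chr4:114106021-114106080, with an r of 0.95 and a smaller span. ICSI-derived replicate 1 was at 0.46, the intermediate animals between -0.16 and -0.05, and the low ones between -0.90 and -0.55, and all 10 arrays were well above background. Among its 10 nearest probes, those at 114077209, 114084473 and 114143513 also put the same 4 animals highest. Named after their values were seen, they had an r of 0.885, 0.851 and 0.824 and ranges of 0.70, 0.62 and 0.86. The rest of the 10 did not, with r from -0.87 to 0.41. The probe at chr4:114167253-114167312 had the animals in the opposite order, with an r of -0.87. There ICSI-derived replicate 1 was lowest, at -0.88, the intermediate animals lay between -0.46 and -0.14, and the others between -0.01 and 0.69. A further probe, at 118699643, named after its values were seen, put the same 4 animals highest with an r of 0.895, just under 0.9. It was at 0.38 in ICSI-derived replicate 1, from -0.18 to 0.04 in the intermediate animals and from -0.62 to -0.30 in the others.

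**Figure D3:**
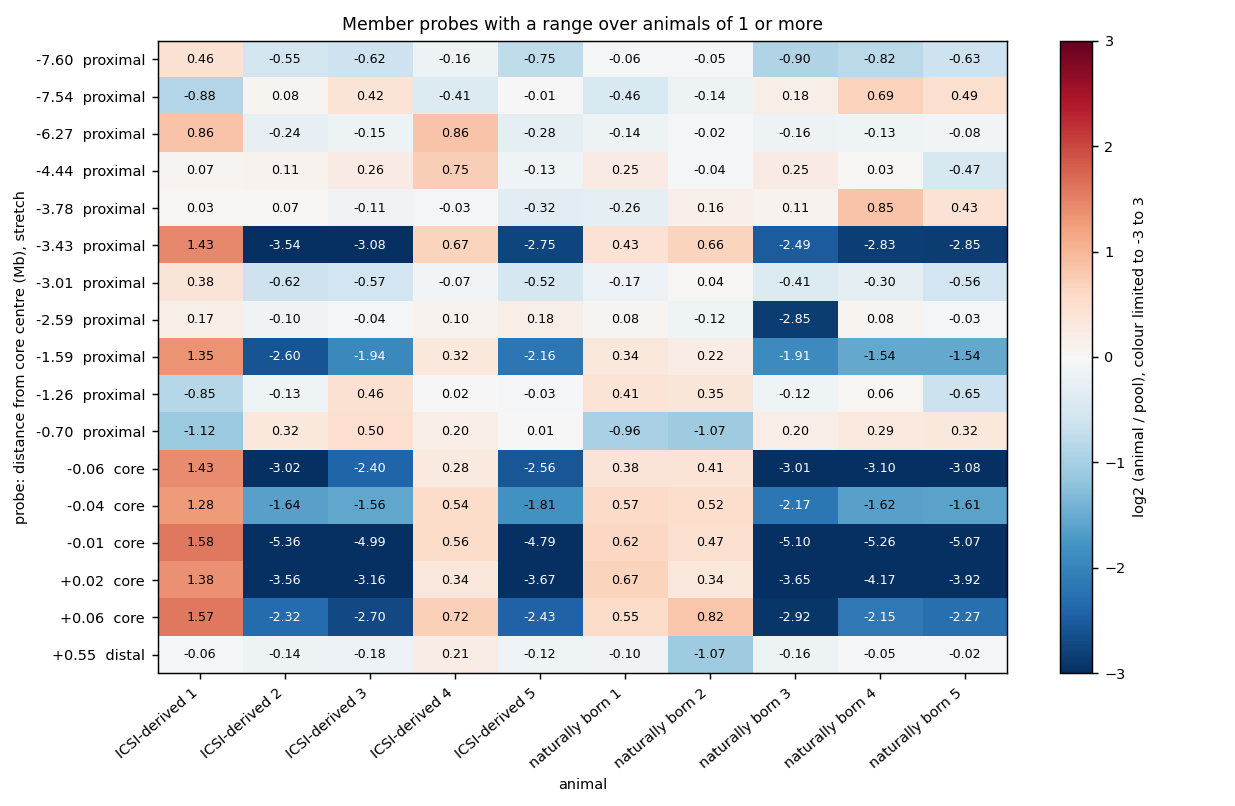
Log2 ratio of animal over pool (colour and printed value) for the 17 member probes with a range of 1 or more (rows, by distance from the core centre in Mb) in the 10 animals (columns). The 5 core rows and the rows at -3.43 and -1.59 Mb are positive in the same 4 animals and negative in the same 6.

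Other variable probes split the intermediate animals or followed none of the levels. At chr4:121008719-121008778, the variable probe closest before the core, ICSI-derived replicate 1 and naturally born replicates 1 and 2 were low, at -1.12, -0.96 and -1.07. ICSI-derived replicate 4 was not, at 0.20, within the range of 0.01 to 0.50 of the 6 animals that were low on the core. The probe had an r of -0.83, and its Cy5 signal was well above background on 7 arrays only. At 115441765, also named after its values were seen, ICSI-derived replicates 1 and 4 were high, at 0.86 each, while naturally born replicates 1 and 2 lay at -0.14 and -0.02, beside -0.29 to -0.08 in the others. ICSI-derived replicate 4 was thus higher than the naturally born animals of its core level at both probes. The probe at chr4:120450783-120450842 ran from -0.85 in ICSI-derived replicate 1 to 0.46 in ICSI-derived replicate 3, with an r of -0.02. At chr4:117933084-117933143 naturally born replicate 4 was highest, at 0.85, and ICSI-derived replicate 5 lowest, at -0.32, with an r of -0.31. At chr4:117271075-117271134 ICSI-derived replicate 4 was highest, at 0.75, and naturally born replicate 5 lowest, at -0.47, with an r of 0.37.

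The last pair of variable probes rested on 1 spot each. At chr4:119119835-119119894 the array labelled naturally born replicate 3 was at -2.85 and all others between -0.12 and 0.18. On that array the Cy3 signal of the spot was 6.17 above the autosomal median, against -0.31 to -0.08 on the others, and the Cy5 signal was also raised, at 3.32 against -0.34 to 0.03. At chr4:122256033-122256092, the only variable distal probe, naturally born replicate 2 was at -1.07 and the others between -0.18 and 0.21. There the Cy3 signal was 1.00 against -0.57 to -0.23 on the other arrays, and the Cy5 signal was -0.07 against -0.69 to -0.17. Both spots carried an outlier flag of the scanner software, and without flagged spots 15 variable probes were left in the window.

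Below the range of 1, a further 8 members outside the core had an r of 0.9 or more, and each of them put the same 4 animals highest. Their ranges were small, from 0.19 to 0.72. The widest was the first probe after the core described above. At chr4:118782994-118783053 ICSI-derived replicate 1 was at 0.40, the intermediate animals from -0.09 to 0.32 and the others from -0.30 to -0.13. At chr4:123777674-123777733 the corresponding values were 0.27, from -0.07 to 0.10 and from -0.41 to -0.26. Counting probes of any range, 11 of 785 members outside the core (1.40%) reached an r of 0.9, against 0.117% of all probes on the other autosomes. On chromosome 4 the share was 1.43% before the window and 0.96% after it. In the same window 2 members had an r of -0.9 or less, with ranges of up to 0.37. The small means of the bins of up to 500 kb outside the core had an r with the core mean from -0.20 to 0.94. It was highest in the bin that holds the probe at 118276369, and below 0 only in the bin just before the core. No comparison with bins on other autosomes was made.

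The order of the animals on the core extended along chromosome 4 well beyond the window. All 103 variable autosomal probes with an r of 0.9 or more lay on this chromosome, from 111601788 to 133882662, a span of 22.3 Mb. Of these, 89 came before the window and 6 after it, the latter between 125260725 and 133882721. The bin from 110 to 115 Mb, which holds the Skint side, had 90 of them, and no bin below 110 or above 135 Mb had any. These limits depend on the cutoffs for r and for the range. Counting probes of any range, an r of 0.9 or more was found at 4 of 395 probes from 105 to 110 Mb (1.01%). It was found at 3 of 455 from 135 to 140 Mb (0.66%) and 3 of 398 from 150 to 155 Mb (0.75%). The share over the other autosomes was 0.117%. By the looser reading, 4 of 12 variable probes from 135 to 140 Mb had the same 4 animals above. In the bins starting at 40, 75 and 150 Mb, 1 probe each had them below. Over the last 2 Mb before the window, log2 ratios averaged 0.78 for ICSI-derived replicate 1, from 0.16 to 0.36 in the intermediate animals, and from -1.08 to -0.90 in the low ones. This side was already known to sort the animals like the core when the window was chosen, so it adds no independent support.

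**Figure D4:**
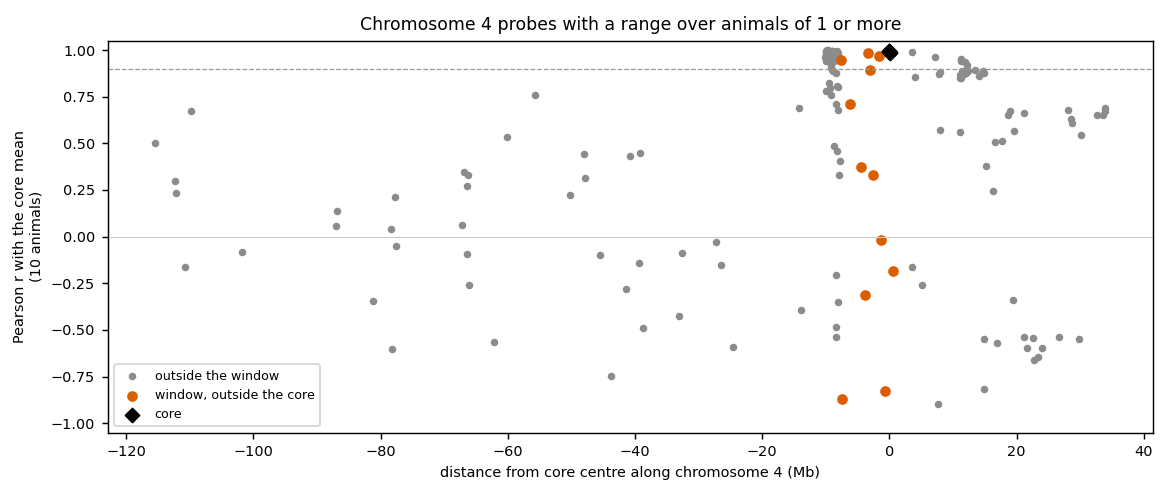
Pearson's r with the core mean over 10 animals (vertical axis) for each chromosome 4 probe with a range of 1 or more, against distance from the core centre in Mb (horizontal axis), with core probes as black diamonds, other window probes in orange, probes outside the window in grey and r = 0.9 dashed. All 103 probes on or above the line lie in a stretch of 22.3 Mb, most of them on the Skint side, and 3 of the 12 orange points are above it.

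ICSI-derived animals were compared with naturally born ones for differences in DNA copy number, and no member differed between the groups by the test over all autosomal probes. Freezing, injection and dam strain went together, so the comparison cannot single out long freezing of the germ cells. limma called 0 of 790 members higher and 0 lower in ICSI-derived animals at an adjusted p of 0.05, where 0.0155% of all autosomal probes were called higher and 0.00434% lower. Before adjustment, 6 members were higher and 11 lower at limma's p under 0.05, 2.15% of the window against 3.27% of all autosomal probes. Over the core, ICSI-derived animals averaged -1.45 ± 2.24 and naturally born ones -1.75 ± 2.09 (SD, n = 5 per group). Their difference of 0.30 was far smaller than the SD within either group. The two-sided exact permutation test of the difference between the group means gave p = 0.563. The proximal stretch averaged -0.0079 ± 0.0302 against -0.0022 ± 0.0271 over the same animals, with p = 0.738 by the exact permutation test. The distal stretch averaged -0.00065 ± 0.0327 against -0.0028 ± 0.0176, with an exact permutation p of 0.944. Adjusted over the 3 stretches, p was 0.944 for each, and the smallest p the design allows is 0.00794. Within slide 1 the core difference was -1.40 and within slide 2 it was 2.08, with 2 animals per group on each. Without the array labelled naturally born replicate 3 it was -0.11, the proximal difference moved from -0.0056 to -0.0118, the distal one from 0.0021 to 4.8e-05, and limma again called 0 members.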

How the data were processed

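Per the file headers, the processed intensity of each dye had been background-subtracted and dye-normalised with Feature Extraction 10.7.3.1 under a CGH protocol. The deposited value table holds log10 ratios equal to those of the scanner files to within 0.001. Partek 6.5 is listed in the submitters' processing notes, with no step given. The build mm9 is named in 6 array headers, and 4 name none.

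Control spots were left out, spots of a probe averaged, and the log2 ratio of Cy5 over Cy3 centred on each array's autosomal median. Group differences per probe came from limma 3.58.1, run in R 4.3.3 (group and sex, Benjamini-Hochberg at 0.05 over 161460 probes), and stretch means by exact permutation. Chromosome 4 was segmented by optimal partitioning (penalty factor 3, at least 5 probes, single probes beyond 4 robust SD of 10 neighbours drawn in). Limma and segmentation were tested on simulated data. Python 3.11.15, numpy 2.4.6 and pandas 2.3.3 were used.

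Named probes are the core, the 10 with the widest range outside it, the 3 variable ones nearest to it and the 3 most like it per side. The members, lists and tests were chosen with earlier results of these data known. The files give no probe sequences. Replicates are separate animals, and the arrays sat on 3 slides. Alternatives were normexp (offset 50), other centring, filters, cutoffs, blocks and leaving out each animal.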

Additional observations from a re-analysis of the deposited data

Results flagged for a closer look

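Of 26 sets of 5 values, the stretch means and the named probes outside the core in each group, 2 had a value far from the rest. About 1 set in 20 has one by chance where sets are not chosen by their values. The named probes were chosen for a wide range over these same animals, so that rate does not apply to their sets. At 119119835 the array labelled naturally born replicate 3 was at -2.845, against -0.12 to 0.08 in the other naturally born animals. At 122256033 naturally born replicate 2 was at -1.068, against -0.16 to -0.02. Both values came from spots that carry an outlier flag of the scanner software.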

How the results depend on the processing

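No member was called higher or lower in ICSI-derived animals by limma (0 of 790) in any of the 20 alternatives run, among them normexp, the deposited value table, slide as a block, no sex term, the replicate block (0) and leaving out each animal. No stretch mean passed its exact test in the alternatives, but those within a slide (2 animals against 2, smallest possible exact p 0.333) and with the replicate block could not have passed at 0.05. In the remaining alternatives the exact p ran from 0.413 to 1.0. The directions of these differences were not stable. Same-numbered animals shared the slide and the labelled sex, and deviated from their group means with correlations of -0.28 to 0.15. So few correlations cannot decide whether the numbers pair the samples, and the main tests used no pairing. With the replicate number as a block the core difference was 0.30, the proximal -0.0056 and the distal 0.0021. The core difference turned to -1.40 within slide 1 and ran from -0.43 to 0.88 with single animals left out, below 0 without ICSI-derived replicates 1 or 4 and without naturally born replicates 4 or 5 or the array labelled replicate 3. The proximal difference turned to 0.0029 within slide 2 and ran from -0.015 to 0.0045 with single animals left out. The distal one turned to -0.0018 with normexp, -0.00074 with the median over probes and -0.00018 within slide 2, and ran from -0.0073 to 0.0095. The 17 variable probes became 140 at a range of 0.5, 10 at 1.5 and 11 among probes well above background on all arrays, and 15 to 17 with single animals left out. The 3 probes outside the core that ordered the animals like it became 6 at an r of 0.8, 1 with normexp, 1 among probes well above background on all arrays and 0 with Spearman's rank correlation, and 2 to 4 with single animals left out. Of these 3, the probes at 118276369 and 120114279 had Cy5 well above background on 4 arrays only. The filter for such signal on all arrays therefore drops them by its definition. The cause of the other moves was not tested. A segment over the core was called in 8 animals and in 7 or 8 under the 4 alternatives. Cy5 signal near the background limits how low a ratio can be read.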
